A study of Homo sapiens with 18 samples.

Results

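INSIG1, HMGCS1, IDI1, SQLE, MSMO1 and DHCR7 are 6 genes of cholesterol synthesis and its control, out of 14884 genes named by a probe set's symbol. They were selected on their own array values, as genes of this pathway whose signal was lower in the line N8 than in other lines, so each of their values that sets N8 against another line is given here as a description, with no test. The label held in full for INSIG1 and HMGCS1 only, whose 3 N8 arrays lay below all 15 other arrays. N8 had the lowest line mean of SQLE, MSMO1 and DHCR7, but its arrays overlapped those of at least 1 other line, and IDI1 was lowest in B21.

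Cells make cholesterol from acetyl-CoA through mevalonate, isoprenoid units and squalene, and squalene is then closed into a ring system and trimmed to cholesterol. The enzymes are controlled together by the transcription factor SREBP2, the product of SREBF2, which is made as a membrane protein of the endoplasmic reticulum and is escorted to the Golgi apparatus by SCAP for cleavage when membrane sterol is scarce. When sterol is plentiful, INSIG proteins hold SCAP in the endoplasmic reticulum and the genes are less active; the pathway runs in nearly all dividing cells in culture and is best known in liver.

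The samples were 6 lines of HEK cells, an established human embryonic kidney line, grown in DMEM with 10% FBS at 37 °C and 5% CO2, with 3 biological replicates and so 3 arrays for each line. By their labels, parental cells and a pair of CRISPR controls, N4 and N8, were wild type for ATXN1L, and A10, A30 and B21 were knockout lines for it, made with CRISPR/Cas9. The treatment text of all 18 samples, the parental ones included, names CRISPR treatment, puromycin selection and isolation of single colonies, so each edited line stands for 1 clone. ATXN1L encodes a partner of the transcriptional repressor CIC, and the series title names both. The ATXN1L signal ran from 7.20 to 7.61 on the knockout arrays and from 7.05 to 7.29 on the wild-type arrays (log2). Where ATXN1L was cut is not stated in the labels, so this signal checks nothing about the genotype, and lines carry their labelled names.

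Values are log2 signals as deposited, so a difference of 1 is a doubling. Array medians lay between 5.09 and 5.18, and arrays of a line correlated at r = 0.978 to 0.994 across genes, which are not independent replicates. Replicate 1 of A10 stood apart: after each gene was centred over all arrays, its correlation with the other A10 arrays was 0.0141 and 0.135, while those correlated at 0.645 with each other, against 0.338 to 0.681 between arrays of a line elsewhere. A gene was tested where at least 3 arrays exceeded 5.6, and 9686 genes were. All 6 genes passed this filter on all 18 arrays, each through a single probe set. Of 9 markers of HEK cells listed, 5 had a symbol and all 5 passed, with line means of the list between 7.50 and 7.82. Over all arrays KRT18 stood at 9.67, VIM at 8.76, EYA1 at 7.90 and KRT8 at 6.495, while PAX2, a marker of the kidney lineage, stood at 5.55, near the filter value. The leukocyte, keratinocyte and endothelial markers with a symbol did not pass. In the hepatocyte list APOA1 (5.54) and TTR (5.62) passed near the filter value while ALB, at 4.22, did not, and in the fibroblast list LUM passed at 5.33 and DCN, at 2.27, did not. Probe sets differ in brightness, so levels are compared between lines and not between genes. In bulk RNA of this kind, fewer cells that express a gene and less of its RNA in each cell cannot be told apart.

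The control regions of the genes are shown first, because these genes are known to share an arrangement of SREBP and partner sites near the start of transcription. For 5 of the 6 genes RefSeq (GRCh38.p14) gave a start, with 9 alternative windows of 250 bases before it in all. For each gene the window with the most CCAAT boxes is printed, 5′ to 3′ on the strand of the gene. Capitals mark the CCAAT box, the site known to be bound by the factor NF-Y, read on either strand (CCAAT or ATTGG). The windows lie at chr7:155297628-155297877 on the plus strand for INSIG1, chr5:43313413-43313662 on the minus strand for HMGCS1, chr10:1048887-1049136 on the minus strand for IDI1, chr4:165327419-165327668 on the plus strand for MSMO1 and chr11:71448394-71448643 on the minus strand for DHCR7.
INSIG1: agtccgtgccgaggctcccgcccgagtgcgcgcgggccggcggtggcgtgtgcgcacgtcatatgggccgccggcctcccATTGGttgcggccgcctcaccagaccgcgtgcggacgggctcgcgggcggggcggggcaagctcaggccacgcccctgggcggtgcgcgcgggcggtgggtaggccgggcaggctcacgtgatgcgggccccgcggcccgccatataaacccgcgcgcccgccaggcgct
HMGCS1: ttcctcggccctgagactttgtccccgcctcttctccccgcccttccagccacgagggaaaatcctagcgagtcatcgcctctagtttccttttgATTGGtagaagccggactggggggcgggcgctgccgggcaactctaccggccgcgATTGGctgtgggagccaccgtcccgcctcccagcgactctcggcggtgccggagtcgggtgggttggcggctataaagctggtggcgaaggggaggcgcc
IDI1: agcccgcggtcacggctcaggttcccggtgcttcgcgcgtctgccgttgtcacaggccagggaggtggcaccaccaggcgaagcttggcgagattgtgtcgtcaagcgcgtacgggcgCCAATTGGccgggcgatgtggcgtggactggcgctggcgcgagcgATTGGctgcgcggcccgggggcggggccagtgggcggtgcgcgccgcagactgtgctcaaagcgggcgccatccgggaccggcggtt
MSMO1: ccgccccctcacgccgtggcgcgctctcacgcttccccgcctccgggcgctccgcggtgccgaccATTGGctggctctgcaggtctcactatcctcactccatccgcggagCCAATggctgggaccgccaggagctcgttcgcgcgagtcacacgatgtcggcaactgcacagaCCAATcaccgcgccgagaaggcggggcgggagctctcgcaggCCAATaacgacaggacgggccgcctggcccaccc
DHCR7: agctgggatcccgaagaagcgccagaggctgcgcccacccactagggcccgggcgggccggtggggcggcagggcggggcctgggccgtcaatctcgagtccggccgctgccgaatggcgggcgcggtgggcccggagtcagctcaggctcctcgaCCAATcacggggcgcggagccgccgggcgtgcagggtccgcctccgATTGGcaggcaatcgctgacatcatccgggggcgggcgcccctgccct

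Each of the 5 genes had a CCAAT box in its printed window, and 4 of them had at least 2. The printed windows were picked for having the most. Among the windows not printed, 1 each of HMGCS1, DHCR7 and IDI1 had 0. Among 27305 genes with such windows, each likewise taken at its window with the most, 37% had a CCAAT box and 11.5% had at least 2. Over single windows 32% had a box. Genes differ in their number of windows, so nothing is read from these shares. MSMO1 had 4, the farthest with its first base at −185 and the nearest at −34 from the start. IDI1 had 3, between −132 and −87, of which the first pair overlaps because CCAATTGG reads as a box on both strands. HMGCS1 had 2, at −155 and −100, DHCR7 had 2, at −94 and −48, and INSIG1 had 1, at −170. The GC box GGGCGG, the letters known to be bound by SP1, was in all 5 genes and in 46.2% of all genes (42.6% of 35116 windows). The E-box CACGTG, which reads alike on both strands, was in INSIG1 alone of the 5 and in 7.73% of genes (6.34% of windows). The sterol regulatory element was searched as TCACNCCAC on both strands; these letters were in none of the 5 genes' windows and in 1.09% of genes (0.883% of windows). No match of one motif overlapped a match of another in the printed windows. Of 49 other lipid genes with windows, 28 had a CCAAT box, 42 a GC box, 4 an E-box and 1 the sterol element. These counts describe letters, and no binding was measured.

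**Figure D1:**
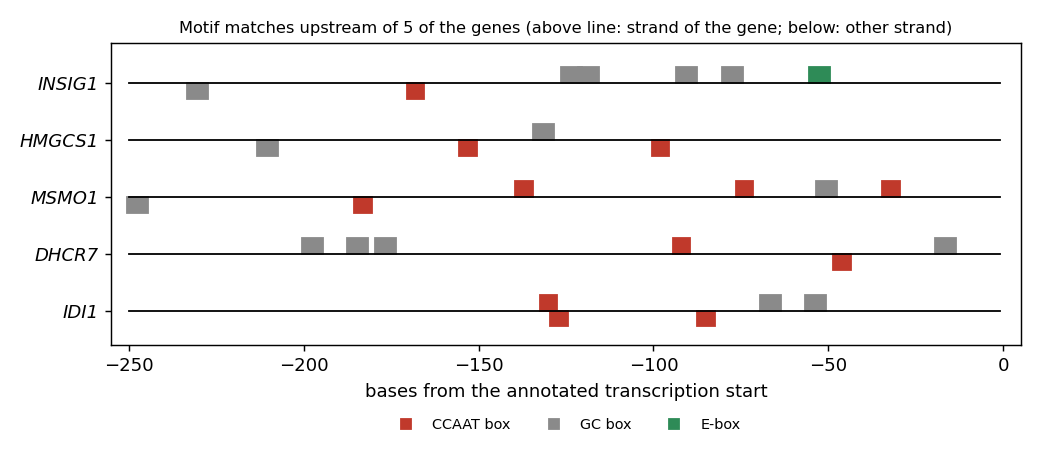
Matches of the CCAAT box (red), the GC box (grey) and the E-box (green) in the 250 bases before the annotated start of 5 genes, in bases from the start (x axis), above the line on the strand of the gene and below it on the other strand. Each gene is shown by its window with the most CCAAT boxes. MSMO1 carries 4 CCAAT boxes and INSIG1 carries 1, at −170 bases.

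The results follow the pathway, starting with its regulator. INSIG1 encodes the endoplasmic reticulum protein that retains SCAP and is itself a target of SREBP. Its arrays read 8.32, 8.36 and 8.53 in N8, 9.19, 9.25 and 9.64 in the parental cells and 8.99, 9.24 and 9.34 in N4. Among the knockout lines they read 9.66, 8.69 and 8.88 in A10, 9.35, 9.15 and 9.22 in A30, and 8.96, 8.62 and 8.69 in B21. The highest N8 array, at 8.53, lay below the lowest of the others, at 8.62 in B21, and the 5 other lines overlapped one after the other, in the order B21, A10, N4, A30 and parental. The N8 mean of 8.40 ± 0.11 (SD, n = 3 arrays) lay 0.96 below the parental mean of 9.36 ± 0.24, which is 51.5% of the parental signal, and the difference from B21 was −0.35 ± 0.19 (SE).

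HMGCS1 encodes the cytosolic HMG-CoA synthase, an early enzyme of the pathway that joins acetyl units on the way to mevalonate. Its arrays read 8.03, 8.20 and 8.21 in N8, 8.82, 9.04 and 9.12 in the parental cells and 8.85, 8.77 and 8.79 in N4. The knockout lines read 8.69, 8.48 and 8.51 in A10, 9.08, 9.07 and 9.14 in A30, and 9.06, 8.93 and 8.93 in B21. N8 was lowest, A10 came next with no overlap with N8 or N4, and B21, the parental cells and A30 overlapped at the top. The N8 mean of 8.15 ± 0.10 (SD) was 55.6% of the parental signal, and N8 differed from the 5 lines by between −0.41 ± 0.08 (SE, against A10) and −0.95 ± 0.08 (against A30).

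IDI1 encodes the isomerase that balances both isoprenoid building blocks. Its arrays read 6.77, 6.88 and 6.85 in N8, 7.05, 7.21 and 7.25 in the parental cells and 6.87, 7.04 and 7.24 in N4. In the knockout lines they read 7.23, 6.78 and 6.87 in A10, 6.85, 6.70 and 6.90 in A30, and 6.66, 6.58 and 6.49 in B21. B21 was lowest, below every array of the other lines, and N8 overlapped N4, A10 and A30. N8 differed by −0.34 ± 0.11 (SE) from the parental cells, by 0.02 ± 0.11 from A30 and by 0.26 ± 0.11 from B21, where N8 was the higher.

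SQLE encodes squalene epoxidase, the enzyme that adds the first oxygen on the way to the sterol ring. Its arrays read 9.02, 9.35 and 9.45 in N8, 9.61, 9.79 and 9.93 in the parental cells and 9.87, 10.08 and 10.00 in N4. The knockout lines read 9.80, 9.38 and 9.35 in A10, 9.79, 9.66 and 9.75 in A30, and 9.41, 9.43 and 9.51 in B21. N8 had the lowest mean, 9.27 ± 0.225 (SD), with arrays overlapping those of A10 and B21, and each line overlapped the next in the order of means. N8 was at 70.5% of the parental signal, and the largest gap was to N4, −0.71 ± 0.12 (SE).

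MSMO1 encodes an oxidase that takes part in the removal of methyl groups from the sterol rings. Its arrays read 9.24, 9.57 and 9.58 in N8, 9.79, 10.07 and 10.05 in the parental cells and 9.67, 9.78 and 9.72 in N4. The knockout lines read 9.73, 9.90 and 9.85 in A10, 9.58, 9.45 and 9.61 in A30, and 9.87, 9.84 and 9.87 in B21. N8 and A30 formed a low pair that overlapped each other and lay below all arrays of the other 4 lines. The N8 mean of 9.46 ± 0.19 (SD) was 70.4% of the parental signal, and it differed from A30 by −0.08 ± 0.09 (SE).

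DHCR7 encodes the reductase of the last step to cholesterol in a branch of the pathway. Its arrays read 8.51, 8.71 and 8.66 in N8, 9.05, 9.16 and 9.16 in the parental cells and 8.88, 9.05 and 9.11 in N4. The knockout lines read 8.78, 8.58 and 8.65 in A10, 8.71, 8.84 and 8.69 in A30, and 9.05, 8.87 and 8.91 in B21. N8, A10 and A30 overlapped in the low range and B21, N4 and the parental cells in the high range, with no array shared between the ranges. N8 was at 70.9% of the parental signal, while its difference from A10 was −0.04 ± 0.08 (SE) and from A30 −0.12 ± 0.08.

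**Figure D2:**
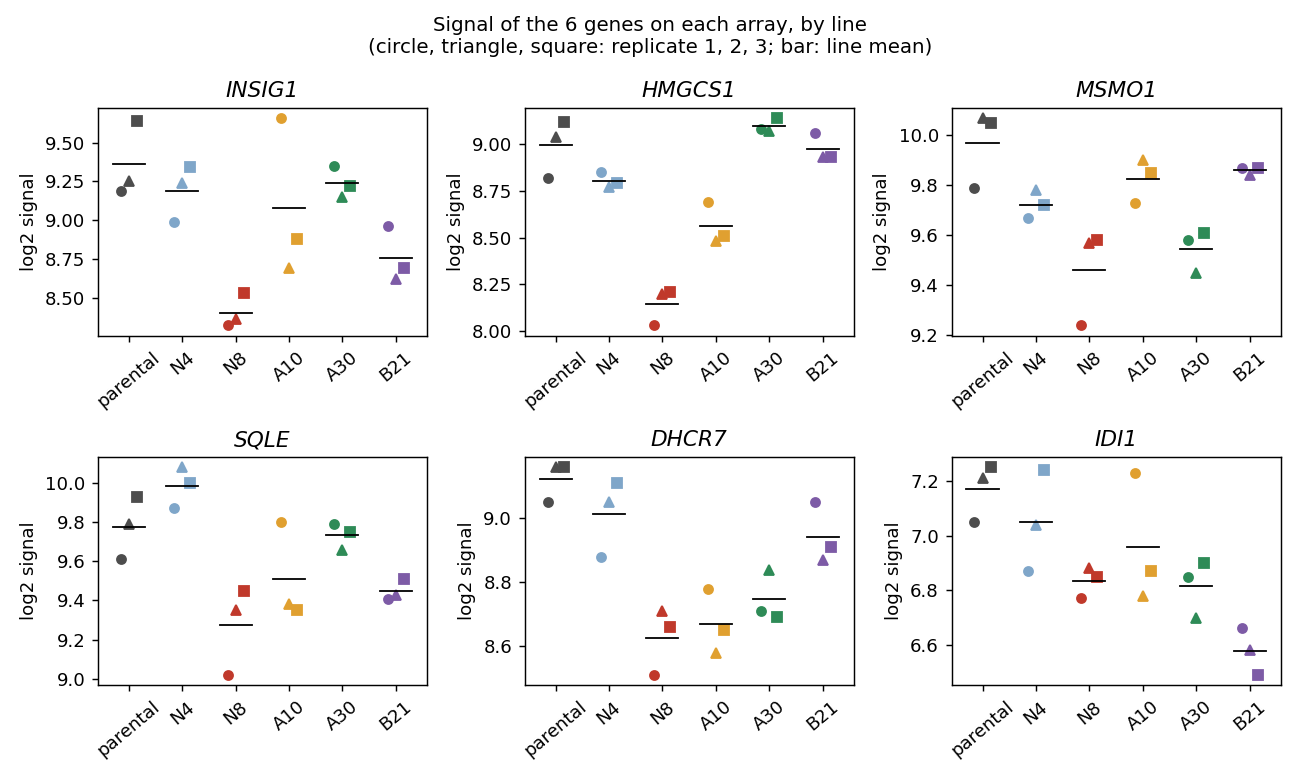
Log2 signal (y axis) of the 6 genes on each array, by line (x axis); circles, triangles and squares are replicates 1, 2 and 3 and bars are line means. All 3 N8 arrays sit below the 15 others for INSIG1 and HMGCS1, whereas IDI1 is lowest in B21 and replicate 1 of A10 stands above the other A10 arrays for INSIG1, SQLE and IDI1.

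Set against the mean of the other 5 lines, N8 differed by −0.74 ± 0.06 (SE) in HMGCS1, −0.72 ± 0.15 in INSIG1, −0.42 ± 0.10 in SQLE, −0.32 ± 0.07 in MSMO1, −0.27 ± 0.06 in DHCR7 and −0.08 ± 0.09 in IDI1. In rank from the lowest of 9686 genes these were 21, 23, 160, 352, 558 and 2826. INSIG1 and HMGCS1 had the widest gaps of the 6, at 60.7% and 59.9% of the other lines' signal, against 74.9% for SQLE and 94.5% for IDI1. The median over the 6 genes was −0.37, beside 0.00 over all genes tested. Without N8 replicate 1, MSMO1 differed by −0.21 and IDI1 by −0.05. All 3 N8 arrays lay below all others in 2 of the 6 genes and in 1.94% of all genes, and N8 had the lowest line mean in 5 of the 6 and in 17.8% of all genes. Nothing is read from these counts, since the genes were chosen by this contrast. In N8, and likewise in the parental cells, replicate 1 was the lowest of the 3 arrays in each of the 6 genes. The share over all genes was not counted, so nothing is read from this order.

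**Figure D3:**
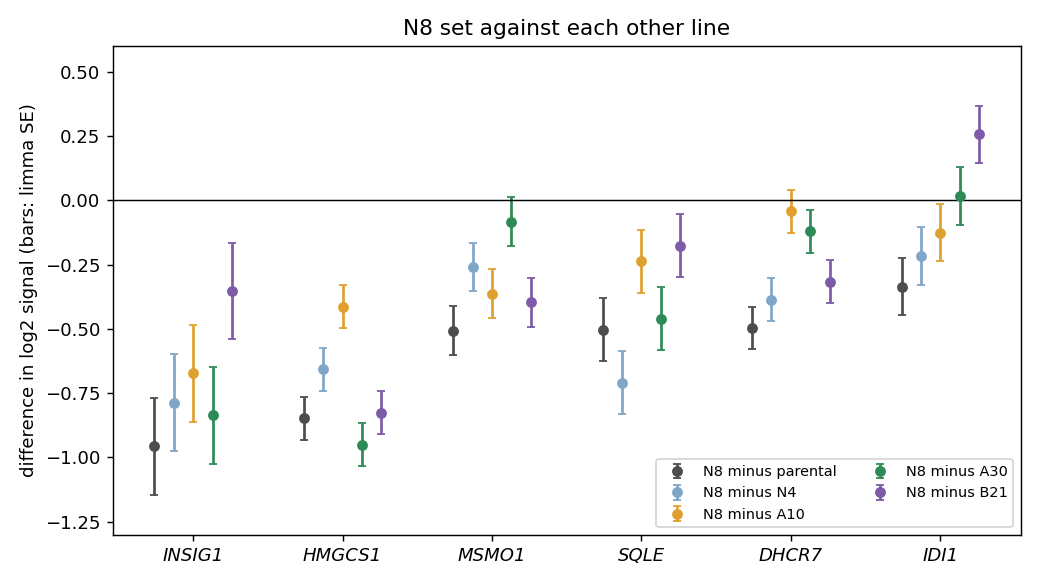
Difference in log2 signal between N8 and each other line (y axis) for the 6 genes (x axis), with limma standard errors as bars. The differences in HMGCS1 run from −0.95 to −0.41, while those in DHCR7 and IDI1 reach −0.04 and 0.26.

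The remaining lines were then compared with each other, since these comparisons bear on whether the 6 genes move together elsewhere. In the fits over arrays, the N8 arrays still entered through the shared estimate of the spread between arrays of a line. All comparisons with the parental cells share the parental arrays, which also had a part in choosing the genes, so their values are given side by side and no overlap is drawn from them. Genes were called where limma's p, after Benjamini-Hochberg adjustment over all 9686 genes, was under 0.05. N4, the other CRISPR control, had 0 of the 6 genes called against the parental cells, where 0.547% of all genes were, and 2 had an unadjusted p under 0.05, beside 13.2% of all genes. MSMO1 differed by −0.25 ± 0.09 (SE, adjusted p = 0.266) and HMGCS1 by −0.19 ± 0.08 (adjusted p = 0.342). SQLE was on the other side, at 0.21 ± 0.12 (adjusted p = 0.493). N4 thus lay within 0.25 of the parental cells in every one of the 6 genes.

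In A10, HMGCS1 and DHCR7 were lower than in the parental cells, by −0.43 ± 0.08 (limma adjusted p = 0.00593) and −0.45 ± 0.08 (adjusted p = 0.00386). These 2 of 6 genes stood beside 6.56% of all genes called, 3.18% as lower. INSIG1 differed by −0.28 ± 0.19 (adjusted p = 0.422), SQLE by −0.27 ± 0.12 (0.218), IDI1 by −0.21 ± 0.11 (0.299) and MSMO1 by −0.14 ± 0.09 (0.419). Replicate 1 of A10, which stood apart, lay above both other A10 arrays in 5 of the 6 genes, beside 39.9% of all genes. The gap to their mean was 0.875 in INSIG1, 0.435 in SQLE and 0.405 in IDI1. Without that array 5 of the 6 genes were called lower in A10 by limma. Over all genes 12% were called in either direction, and the share called lower was not counted. The 5 genes were INSIG1 by −0.575 ± 0.14 (adjusted p = 0.0141), HMGCS1 by −0.50 ± 0.09 (0.00184), SQLE by −0.41 ± 0.11 (0.0286), DHCR7 by −0.51 ± 0.09 (0.0018) and IDI1 by −0.345 ± 0.10 (0.0376). MSMO1 alone was not called, at −0.095 ± 0.10 (0.598). In the same 2 A10 arrays the distance of N8 from A10 shrank to −0.38 in INSIG1, −0.09 in SQLE and 0.01 in both DHCR7 and IDI1, while it was −0.35 in HMGCS1 and −0.41 in MSMO1.

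In A30, MSMO1, DHCR7 and IDI1 were lower than in the parental cells, by −0.42 ± 0.09 (limma adjusted p = 0.00353), −0.38 ± 0.08 (0.00331) and −0.35 ± 0.11 (0.0275). A30 had many calls in all, 25.1% of genes with 14.6% lower, so 3 of 6 stands against a high background. HMGCS1 differed by 0.10 ± 0.08 (adjusted p = 0.394), INSIG1 by −0.12 ± 0.19 (0.68) and SQLE by −0.04 ± 0.12 (0.828). The genes next to MSMO1 on its chromosome moved with it in A30, as described below. The IDI1 call ended without replicate 2 or 3 of the parental cells or replicate 1 or 2 of A30, with adjusted p values of 0.078, 0.0959, 0.053 and 0.11.

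In B21, INSIG1 was lower than in the parental cells by −0.60 ± 0.19 (limma adjusted p = 0.0435) and IDI1 by −0.59 ± 0.11 (0.00197), beside 12.7% of all genes called and 6.01% lower. SQLE differed by −0.33 ± 0.12 (adjusted p = 0.0924), DHCR7 by −0.18 ± 0.08 (0.174), MSMO1 by −0.11 ± 0.09 (0.499) and HMGCS1 by −0.02 ± 0.08 (0.908). IDI1 had its lowest level of the 6 lines here. The INSIG1 call was close to the threshold. It was lost without any 1 of 11 arrays, with adjusted p from 0.0503 to 0.178: each parental array, replicates 2 and 3 of N4, N8 and B21, and replicates 1 and 3 of A30. SQLE was called without replicate 1 of A10 (adjusted p = 0.0414), an array of neither group, which enters through the shared estimate of the spread.

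The 3 knockout lines were compared with the parental cells and N4 on line means, with N8 left out. By limma 0 of the 6 genes were called, beside 0.0516% of all genes, and 3 had an unadjusted p under 0.05, beside 10.1% of all genes. SQLE differed by −0.32 ± 0.12 (SE, adjusted p = 0.438), DHCR7 by −0.28 ± 0.11 (0.447) and IDI1 by −0.33 ± 0.125 (0.447). INSIG1 differed by −0.25 ± 0.15 (0.585), MSMO1 by −0.10 ± 0.13 (0.81) and HMGCS1 by −0.02 ± 0.16 (0.973). The median of the 6 differences was −0.27, beside 0.00 over all genes. Counting N8 among the wild-type lines turned the sign of 3 of them, to 0.04 in INSIG1, 0.23 in HMGCS1 and 0.03 in MSMO1.

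The 5 lines other than N8 differed among themselves in most of the genes. The limma F test over these lines called 5 of 6, beside 36.1% of all genes: HMGCS1 (adjusted p = 0.000788), DHCR7 (0.00198), IDI1 (0.00409), SQLE (0.0132) and MSMO1 (0.0166). INSIG1, the gene with the widest spread between A10 arrays, had an adjusted p of 0.104, and 0.00345 without replicate 1 of A10. The replicate number, tested with the line as a term, called 0 of 6 genes by limma, and 0 at an unadjusted p under 0.05, while 12.8% of all genes were called and 29.7% had an unadjusted p under 0.05.

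Set against each other, the knockout lines differed most in HMGCS1, which was lower in A10 than in A30 by −0.54 ± 0.08 (limma adjusted p = 0.000226) and lower than in B21 by −0.41 ± 0.08 (0.00363). Of the 6 genes, 2 were called between A10 and A30 (21.9% of all genes), 3 between A10 and B21 (13.1%) and 1 between A30 and B21 (9.8%). DHCR7 was lower in A10 than in B21 by −0.27 ± 0.08 (0.0385), and IDI1 was higher there by 0.38 ± 0.11 (0.0302). MSMO1 was higher in A10 than in A30 by 0.28 ± 0.09 (0.0418) and lower in A30 than in B21 by −0.31 ± 0.09 (0.0439). Which knockout line had the lowest mean depended on the gene: it was A10 for HMGCS1 and DHCR7, A30 for MSMO1 and B21 for INSIG1, SQLE and IDI1.

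Neighbouring genes shifted together in some lines of this series, so each gene was set beside the median of 41 neighbouring tested genes, in the order of genes in RefSeq. For INSIG1 in N8 the deviation from the mean of the 6 lines was −0.60 and that of its neighbours 0.03. For HMGCS1 it was −0.62, with neighbours at −0.14. For MSMO1 in A30 the deviation was −0.185 while its neighbours stood at −0.37, and after subtraction A30 differed from the parental cells by 0.11 in place of −0.42. The neighbours of IDI1 were high in N8, at 0.26, while IDI1 itself was at −0.07. After the neighbours were subtracted, N8 differed from the mean of the other lines by −0.76 in INSIG1, −0.57 in HMGCS1, −0.38 in IDI1, −0.34 in SQLE, −0.30 in MSMO1 and −0.21 in DHCR7. The neighbours of SQLE were high in N4, at 0.26 beside 0.36 for SQLE, and its difference from the parental cells became 0.0011. In B21, DHCR7 differed from the parental cells by −0.30 after subtraction (limma adjusted p = 0.0333) and INSIG1 by −0.585 (0.0693).

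**Figure D4:**
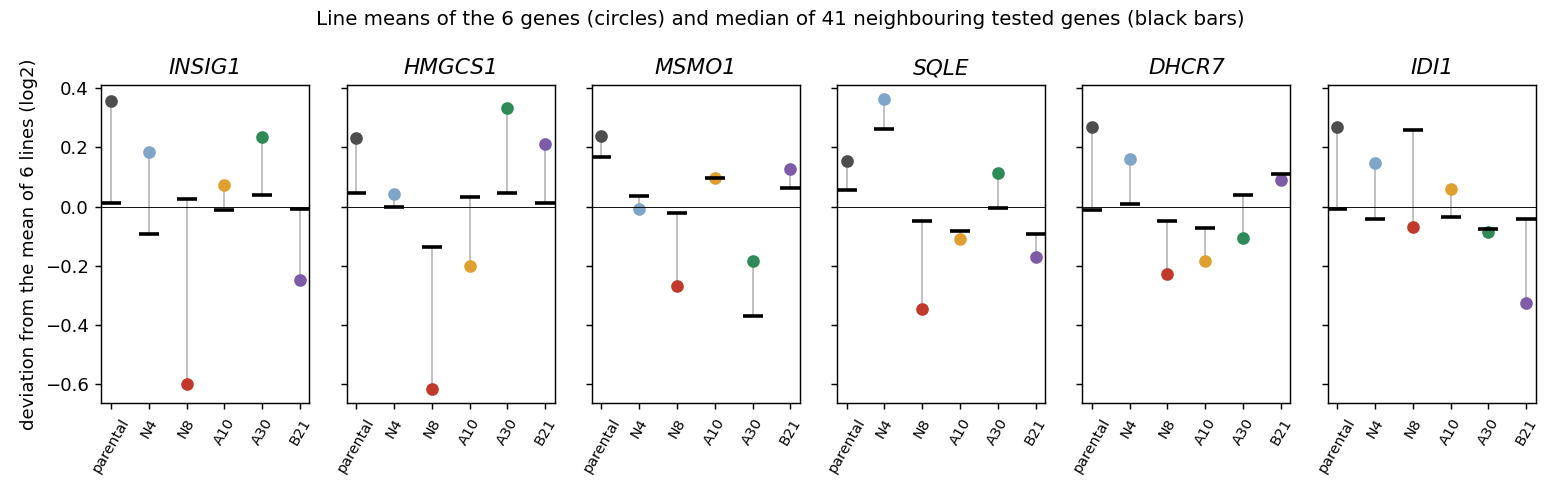
Deviation of each line mean from the mean of the 6 lines (circles, log2, y axis) for the 6 genes and the median of the same deviation over 41 neighbouring tested genes (black bars), by line (x axis). The neighbours of INSIG1 stay near 0 in N8 while INSIG1 is at −0.60, the neighbours of MSMO1 in A30 are lower than MSMO1, and the neighbours of IDI1 in N8 are higher than IDI1.

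The rest of the lipid network was described with 5 lists, 64 genes in all, of which 36 were tested. In N8 against the mean of the other lines, 10 of the 36 were called by limma, 4 higher and 6 lower, beside 19.8% of all genes called (11% higher and 8.78% lower). Their median was −0.04, beside 0.00 for all genes. No comparison with the −0.37 of the 6 genes is drawn, since those were chosen for being low in N8. After the subtraction of neighbours 2 of the 36 were called, beside 8.01% of all genes.

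Of the other 11 tested cholesterol synthesis genes, 1 was higher, 1 lower and 9 were not called, with a median of −0.03. These were left after genes low in N8 had been taken out of the pathway. The split and the median therefore say nothing about the pathway as a whole. PMVK, which encodes phosphomevalonate kinase, rose in N8 by 0.28 ± 0.09 (SE, limma adjusted p = 0.0305), with N8 arrays at 7.13, 6.99 and 6.95 and the others between 6.25 and 6.98. Against single lines PMVK was called only against A30, by 0.59 ± 0.11 (0.00093). The difference from the parental cells was 0.15 ± 0.11 (0.388). HSD17B7, which encodes a reductase of sterol ring trimming, fell by 0.55 ± 0.18 (adjusted p = 0.0363). Its N8 arrays read 6.26, 5.35 and 5.92, and without replicate 2 the difference was −0.30 (adjusted p = 0.317). The call was also lost without N8 replicate 3 (0.0826), N4 replicate 2 (0.0504), A30 replicate 1 (0.0504) or B21 replicate 2 (0.0505). The gene has a near-identical pseudogene copy, so its signal is uncertain. The PMVK call was lost without any 1 of the N8 arrays (adjusted p = 0.0573 to 0.158). EBP, a sterol isomerase gene, differed by 0.16 ± 0.06 (0.0629) and TM7SF2, a sterol reductase gene, by 0.15 ± 0.10 (0.321). The listed synthesis genes without a tested probe set were not analysed here.

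Among 5 tested genes of sterol sensing and SREBP processing, SREBF2 was called. It fell in N8 by 0.32 ± 0.08 (limma adjusted p = 0.0107), with arrays at 8.06, 7.69 and 7.54 in N8 and between 7.86 and 8.28 elsewhere, so that replicate 1 of N8 overlapped other lines. The call was lost without N8 replicate 2 (adjusted p = 0.0697) or 3 (0.121) and after the subtraction of neighbours (−0.22, 0.12). INSIG2, the second INSIG gene, differed by 0.12 ± 0.09 (0.363), in the direction opposite to INSIG1, and by −0.03 after that subtraction. SREBF1, which encodes SREBP1, differed by −0.10 ± 0.06 (0.299), and RNF139, a ubiquitin ligase gene, by −0.12 ± 0.09 (0.396).

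All 6 tested genes of cholesterol uptake and transport were below 0 in N8, as were 4737 of all 9686 genes. Their median was −0.17 and 3 were called lower, beside 8.78% of all genes. Against single lines, 5 of the 6 were called lower in N8 than in A30 (1067 of 9686 genes) and 2 than in B21 (804). It was 1 each against the parental cells (681) and A10 (515), and 0 against N4 (518). STARD4, which encodes a cytosolic sterol carrier, fell by 0.30 ± 0.07 (limma adjusted p = 0.00625), with arrays of 8.38, 8.25 and 8.38 in N8 and of 8.42, 8.30 and 8.45 in B21, the line nearest to it. OSBP, which encodes an oxysterol-binding protein, fell by 0.21 ± 0.05 (0.011). Each of these calls was lost without 1 N8 array, replicate 2 for STARD4 (0.0548) and replicate 3 for OSBP (0.0838). Against single lines, OSBP was called against A30 (0.000912) and B21 (0.012) but not against the parental cells (0.12), N4 (0.266) or A10 (0.283). VLDLR, a lipoprotein receptor gene, fell by 0.28 ± 0.08 (0.0181) although N8, at 7.04, lay above the parental cells (6.81) and N4 (6.82); A30 and B21 were at 7.74 and 8.01, and after the subtraction of neighbours the difference was 0.03. The VLDLR call was lost without N8 replicate 2 (0.0741) or 3 (0.11). MYLIP, the gene of the ligase that degrades the LDL receptor, differed by −0.12 ± 0.07 (0.23).

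Fatty acid genes went both ways in N8, with 3 of 13 higher and 1 lower. SCD5, a desaturase gene, rose by 0.44 ± 0.06 (limma adjusted p = 0.000141), FASN, the fatty acid synthase gene, by 0.24 ± 0.06 (0.0067) and LPIN1, a phosphatidate phosphatase gene, by 0.21 ± 0.07 (0.0303). TMEM41B, a gene for a membrane protein of the endoplasmic reticulum, fell by 0.42 ± 0.09 (0.00376). All 4 calls ended after the subtraction of neighbours, with adjusted p from 0.0931 to 0.716. The FASN call was also lost without N8 replicate 2 (0.0568) and that of LPIN1 without any 1 of the N8 arrays (0.0517 to 0.174). Against the parental cells alone, FASN in N8 differed by 0.05 ± 0.07 (0.715) and SCD5 by 0.22 ± 0.08 (0.0753). LPCAT3, the only tested gene of the LXR list, differed from the mean of the other lines by 0.07 ± 0.07 (0.522).

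**Figure D5:**
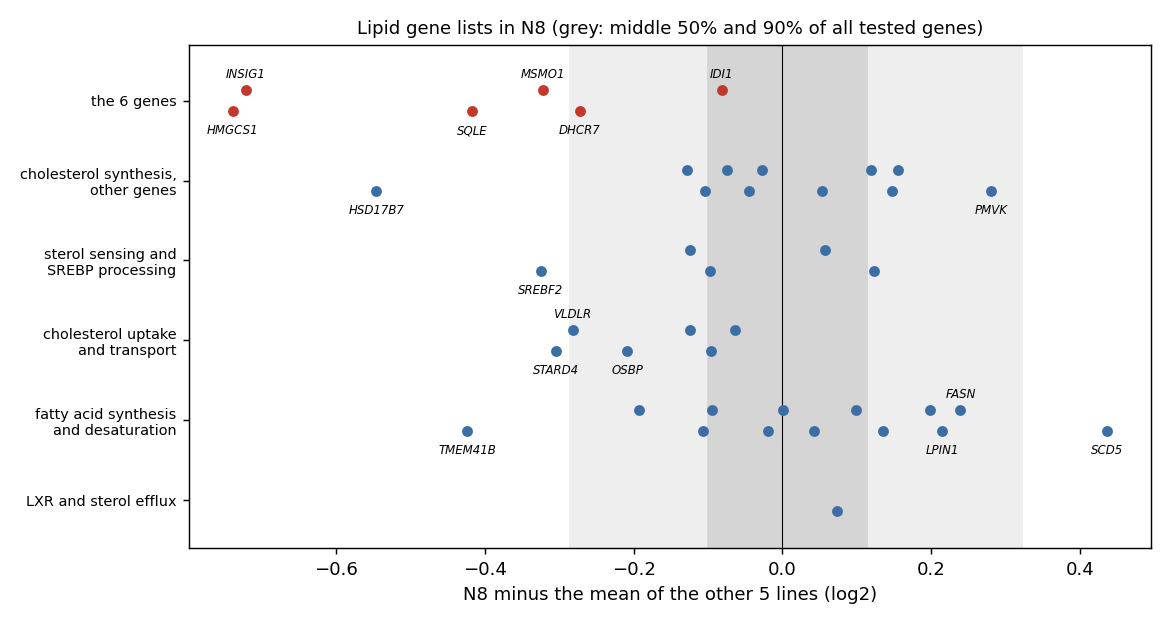
Difference in log2 signal between N8 and the mean of the other 5 lines (x axis) for the 6 genes (red) and the tested genes of 5 other lipid lists (blue), with the middle 50% and 90% of all tested genes in grey. Only names of the 6 genes and of genes called by limma are written. The 6 genes, chosen for low values in N8, range from −0.74 to −0.08. The synthesis genes left after that choice lie on both sides of 0.

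In A30, where MSMO1, DHCR7 and IDI1 were lower than in the parental cells, 4 of the 11 other synthesis genes were lower and 0 higher by limma, beside 14.6% of all genes lower and 10.5% higher. They were ERG28 (−0.52 ± 0.06, adjusted p = 2.61e-05), PMVK (−0.44 ± 0.11, 0.00901), LBR (−0.42 ± 0.07, 0.00025) and FDPS (−0.31 ± 0.10, 0.0277). Of the fatty acid genes, 6 of 13 were lower, against the same 14.6%, among them FASN (−0.52 ± 0.07, 9.32e-05) and SCD5 (−0.70 ± 0.08, 1.21e-05). In the uptake list 3 of 6 were higher (10.5% of all genes), with VLDLR at 0.92 ± 0.10 (1.02e-05). In B21, 1 of 11 synthesis genes was lower, LBR, by −0.29 ± 0.07 (0.00793), and SREBF1 was lower by −0.29 ± 0.08 (0.0229). Of the fatty acid genes 5 of 13 were lower there and 1 was higher, and 6.01% of all genes were lower in B21 and 6.68% higher. A10 had 0 of the 11 synthesis genes called, beside 6.56% of all genes. The neighbours were not subtracted for these list genes in A30, B21 or A10, so shifts shared with neighbouring genes remain in their values. With that subtraction the share of all genes called in A30 fell from 25.1% to 14.4%.

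The 6 genes varied together to different degrees over the 18 arrays. These include the N8 arrays on which the genes were chosen, so part of this likeness was set by the choice. As a description, with arrays of a line sharing their clone, the correlation of each gene with the mean of the other 5 was 0.849 for INSIG1, 0.822 for SQLE, 0.732 for DHCR7, 0.644 for HMGCS1, 0.524 for IDI1 and 0.496 for MSMO1. Averaged over the 6 genes, each set to its own mean, the lines stood at 0.25 ± 0.14 (SD, n = 3 arrays) in the parental cells, 0.15 ± 0.09 in N4, 0.05 ± 0.04 in A30, −0.05 ± 0.19 in A10, −0.05 ± 0.07 in B21 and −0.35 ± 0.12 in N8. The genes outside the 6 with the pattern most like this average were RIBC2 (r = 0.907 over 18 arrays), TSPAN12 (0.897), SBNO1 (0.878), PDZRN3 (0.866), RASEF (0.863) and PSIP1 (0.8605). None of these belonged to a lipid list, and N8 lay below the mean of the other lines by −0.99 ± 0.095 (SE) in RIBC2 and −0.86 ± 0.07 in PSIP1. A low N8 is part of the average these genes were matched to, so nothing is read from these values. The lipid genes most like the average were TMEM41B (r = 0.674, rank 199 among genes outside the 6), SCD (0.673, rank 203) and SREBF2 (0.6095, rank 364), and the acetyl-CoA synthetase gene ACSS2 ran against it (−0.549).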

How the data were processed

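RNA of 18 samples was extracted with the Qiagen miRNeasy kit and hybridised to Affymetrix arrays, 1 for each sample. The authors deposited log2 values, 1 for each probe set and array, from Affymetrix Expression Console per the submitters' processing notes. Version and options were not given in the sources used here, and the scale was read from the values (0.57 to 14.84). They were used as deposited, with a pseudocount of 0; the number of arrays limits their precision.

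Of 53617 probe sets, 16098 had 1 gene symbol, 0 had several and 37519 had none. For 779 genes with more than 1 probe set, the brightest on average was used. The filter kept 9686 genes with at least 3 arrays above 5.6, the 40th percentile over genes with a symbol.

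Differences and standard errors came from limma 3.58.1 in R 4.3.3, with 1 mean for each line over all arrays and Benjamini-Hochberg adjustment over 9686 genes. Line means served for the knockout lines against the parental cells and N4. Neighbour centring subtracts the running median of 41 tested genes in RefSeq order. The fits were tested on simulated data. Named are the 6 genes, up to 4 genes of each other lipid list with the largest difference of N8 from the other lines, and the 6 genes most like the average of the 6; ERG28, LBR, FDPS, SCD and ACSS2 were named after their values were seen. The genes and lists were chosen with earlier results of these data known, and the comparisons among knockout lines were added after the data were seen. Alternatives covered the filter, normalisation, probe set choice, variance prior, neighbour centring, replicates 2 and 3 alone, a replicate block and leaving out each array. Figures used matplotlib 3.10.9.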

Additional observations from a re-analysis of the deposited data

Results flagged for a closer look

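These results differed between knockout lines, by limma's test of the difference itself adjusted over all genes. HMGCS1 differed between A10 and A30 by −0.54 ± 0.08 (SE, adjusted p = 0.000226) and between A10 and B21 by −0.41 ± 0.08 (0.00363), and both calls held in every alternative run, with adjusted p up to 0.00182 and 0.0201. The other 4 depended on the setting and on single arrays. MSMO1 differed by 0.28 ± 0.09 (0.0418) between A10 and A30 and by −0.31 ± 0.09 (0.0439) between A30 and B21. After the subtraction of neighbouring genes these values were −0.18 (adjusted p = 0.242) and 0.12 (0.581). With 1 array left out, the first call was lost without 8 of the arrays (adjusted p up to 0.148, without A30 replicate 2) and the second without 11 (up to 0.154, without A30 replicate 2). DHCR7 differed by −0.27 ± 0.08 (0.0385) between A10 and B21, and by −0.09 (0.628) after that subtraction; the call was lost without A10 replicate 2 (0.137) or 3 (0.0979) or B21 replicate 1 (0.141), 2 (0.0548) or 3 (0.0751). IDI1 differed by 0.38 ± 0.11 (0.0302) between A10 and B21, and by 0.25 (0.128) without replicate 1 of A10; the call was also lost without B21 replicate 2 (0.0778) or 3 (0.113).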

How the results depend on the processing

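Over the alternatives, counts of the 6 genes called by limma against the parental cells moved most in A10 and B21. In A10 the count of 2 (6.56% of all genes called) became 5 in replicates 2 and 3 only (12.9%). It ran from 2 to 5 with 1 array left out, with 5 without A10 replicate 1 (12%). In A30 the count of 3 (25.1% of all genes) became 1 with neighbour centring (14.4%). In B21 the count of 2 (12.7% of all genes) became 1 with no filter on dim genes (6.03%) and 4 in replicates 2 and 3 only (15.9%). It ran from 1 to 3 with 1 array left out (7.29% to 15.2%). The F test over 5 lines fell from 5 genes to 3 with neighbour centring, while the share of all genes called fell from 36.1% to 19.8%. The 10 called genes of the other lipid lists (19.8% of all genes) became 2 with neighbour centring (8.01%). With 1 array left out they ran from 3 to 11. The lowest counts were 3 without N8 replicate 2 (12.7%) and 4 without N8 replicate 3 (13.6%). The counts for N4, for the knockout lines on line means and for the replicate number were 0 in each alternative run.

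Signs turned in these cases, none of them called in the run where the sign turned. MSMO1 in A30, VLDLR in N8 and both MSMO1 differences between knockout lines had been called in the main run. With neighbour centring, MSMO1 in A30 became 0.11, SQLE in A30 0.0178, HMGCS1 in B21 0.0128, MSMO1 in the knockout lines 0.0694, INSIG2 in N8 −0.0271 and VLDLR in N8 0.0289, and MSMO1 became −0.18 between A10 and A30 and 0.12 between A30 and B21. With N8 among the wild-type lines, the knockout difference became 0.04 in INSIG1, 0.23 in HMGCS1 and 0.0256 in MSMO1. RNF139 in N8 became 0.002 in replicates 2 and 3 only. With 1 array left out, the A30 difference ran from −0.205 to 0.02 in INSIG1 and from −0.13 to 0.0333 in SQLE, the B21 difference of HMGCS1 from −0.11 to 0.0433, its knockout difference from −0.065 to 0.01, and LPCAT3 in N8 from −0.031 to 0.13. The cause was not tested.

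Same-numbered arrays of different lines had deviations from their line means that correlated at −0.004 to 0.514, with 39 of 45 pairs over 0.1, and 15 of 18 arrays correlated best with 1 of their own number, a hint from the data that the number carries a shared effect. The labels give no shared source for a number and not every pair exceeded 0.1, so the block was kept as an alternative. With a replicate block, 66 of 67 results were kept. For single-gene tests this means the same call, and for counts and untested differences a value near that of the main run. The exception was EBP, which became called by limma (adjusted p = 0.0449). With the replicate block the genes called numbered 0 in N4, 2 in A10, 3 in A30, 2 in B21 and 0 in the knockout lines. The F test called 5, the N8 median was −0.37 and 11 lipid genes were called in N8. Over all genes the counts went from 53 to 168 in N4, from 635 to 1119 in A10 and from 1229 to 1860 in B21. They went from 2431 to 3089 in A30, from 3500 to 4580 in the F test and from 1915 to 2571 in N8. The N8 median of the 6 genes ran from −0.44 to −0.25 with 1 array left out. Dim signal limits IDI1 most, at a mean of 6.90 against a filter value of 5.6.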
